A study of Mus musculus with 2 samples.

Results

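The genes Stab1, Stab2, Lyve1, Clec4g, Pecam1, Kdr, Tek, Cdh5, Ehd3 and Eng, which mark the sinusoidal endothelial cells of the liver, were looked up by symbol in the deposited expression table. All 10 were among its 8551 genes. The table holds 1 liver library of wild type (normal) males and 1 of males of the db/db (type 2 diabetic) genotype. The db mutation lies in the leptin receptor gene, is carried by every cell and leads to obesity and diabetes. Both groups were 9 weeks old, were on a C57BL/6 background according to the labels, and were killed about 3 h into the light cycle. RNA was taken from frozen liver with no sorting of cells named, so the RNA of all liver cells was measured together. With 1 library per group, no difference below has a replicate check, and each test compares the 2 libraries and not the conditions.

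Liver sinusoids are lined by an endothelium with open pores and no continuous basement membrane. Its cells clear waste macromolecules such as hyaluronan and collagen fragments from the blood through scavenger receptors, and they pass signals such as BMP2 and Wnt ligands to the hepatocytes. Stab1 and Stab2 encode the scavenger receptors stabilin-1 and stabilin-2, Lyve1 a hyaluronan receptor, and Clec4g the C-type lectin LSECtin. Kdr encodes the VEGF receptor VEGFR2, Tek the angiopoietin receptor TIE2, and Eng the BMP and TGF-beta co-receptor endoglin. Pecam1 (CD31) and Cdh5 (VE-cadherin) hold endothelial cells together, and Ehd3 acts in the return of receptors from endosomes. Some macrophages also carry Stab1 and Lyve1.

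Digital gene expression counts short tags that start at a DpnII site (GATC) of the cDNA. The site nearest the 3′ end of each member transcript was therefore read from GENCODE M21 (GRCm38), since it is where the protocol would be taken to start a tag. These sequences are shown because they are what each count stands for if the 3′-most site was used. The labels also name random hexamer primers, and the tags behind each count were not analysed here. The site is in capitals, followed by the next 16 bases, 5′ to 3′ on the gene's strand.
Stab1: GATCtgagcctccacctgtg
Stab2: GATCatttgttttaaagtat
Lyve1: GATCtgcagcacgtagacag
Clec4g: GATCcactgcctgtttccta
Kdr: GATCgaatgggcaatgcttt
Tek: GATCacttgtgaatttactg
Eng: GATCcaagcccctcccagcc
Pecam1: GATCttcctttccgttccat
Cdh5: GATCccagaagagctaagag
Ehd3: GATCccagtgttgctacgtg

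Each of the 10 transcripts held a DpnII site, from 2 in Clec4g to 22 in Stab2. For 9 of the 10 genes the 3′-most site lay in the 3′ UTR, and for Stab1 it lay in coding sequence of exon 67 of 69. None of the 10 tags of 20 bases occurred on the sense strand in a transcript of another gene, so each of these tags names its gene alone. The Kdr tag lies at chr5:75934065-75934084 on the minus strand in the last of 30 exons, 1258 bases from the transcript's 3′ end. The Clec4g tag lies at chr8:3716183-3716202 on the minus strand, 139 bases from the 3′ end. The Eng tag lies at chr2:32682011-32682030 and the Ehd3 tag at chr17:73831443-73831462, both on the plus strand. Of the coding transcripts annotated to their 3′ end, all 3 of Eng gave the same tag, against 4 of 5 for Pecam1, 2 of 3 for Tek, 1 of 2 for Clec4g and 1 of 2 for Stab1. The other 5 genes had 1 such transcript each. The authors' files were made against mm9, so these GRCm38 positions are not positions of that build.

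The deposited values, which the authors call TPM, are the tags of a gene scaled to the same number of clean tags in each library. They rise in steps of 0.0973 TPM in the wild type library and 0.0740 TPM in the db/db library, which gives 10278531 and 13508232 clean tags, and 1 step is 1 read. The members had between 33 and 490 reads in a library, so their values are limited by counting error. Intervals below are 95% intervals, exact Poisson for levels, Clopper-Pearson for ratios and Wilson for shares, and cover counting error only. A gene was called changed when it differed at least 1.5-fold with a false discovery rate (FDR) under 0.001 by an exact binomial test of its reads (two-sided, Benjamini-Hochberg adjusted over all 8551 genes). All listed genes had a median log2 ratio of 0.25 (db/db over wild type), and 4 other scalings between the libraries lowered each log2 ratio by 0.25 to 0.31. The share of higher genes among those called was 73.6% on the deposited scale and 47.4% to 52.6% under those scalings.

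Among the endothelial markers, Clec4g, Eng and Ehd3 were lower in the db/db library and Kdr was higher. The other 6 genes, Stab1, Stab2, Lyve1, Pecam1, Tek and Cdh5, were not called. Of all listed genes, 31.0% were called by the same rule, 8.19% lower and 22.9% higher, and of the 4888 genes with a mean level within the members' range of 3.23 to 39.2 TPM, 9.21% and 24.5%. The 3 members called lower and 1 called higher are to be read against these shares. The log2 ratio was below 0 for 8 of the 10 members, against 38.1% of all listed genes. Under the 4 other scalings it was below 0 for the same 8 members and for 50% to 52.5% of all listed genes. The median over the 10 members was -0.24, and that of all listed genes was 0.25. In whole liver RNA, fewer endothelial cells and less RNA of a gene per cell cannot be told apart.

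**Figure D1:**
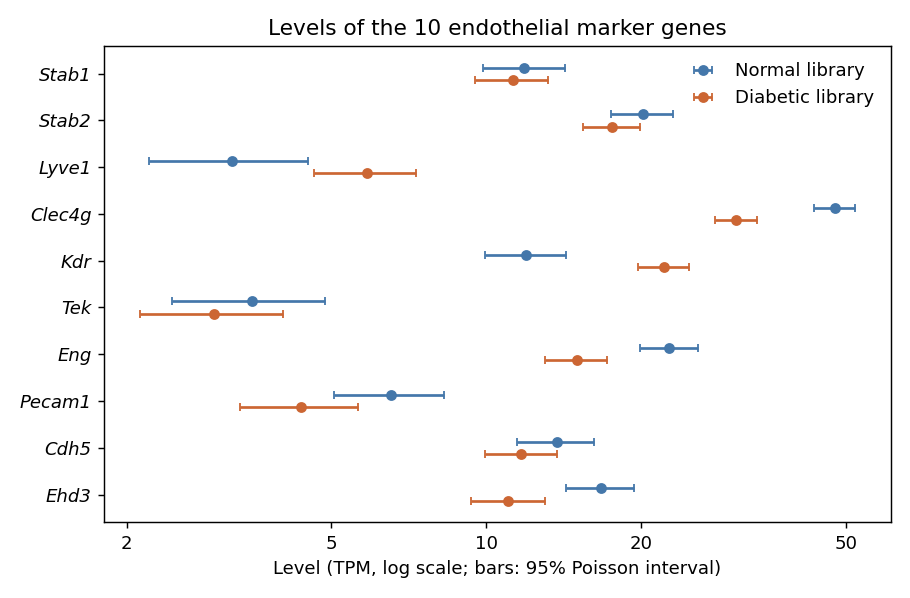
Level of each endothelial marker gene (TPM, log axis) in the wild type (normal, blue) and the db/db (diabetic, orange) library, with 95% exact Poisson intervals. The intervals of Clec4g, Eng, Ehd3, Kdr and Lyve1 do not overlap between the libraries, and those of the other 5 genes do. The share of all listed genes with separate intervals is not given here, and 31.0% of them were called changed.

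Of the scavenger and lectin receptors, only Clec4g was called. Clec4g was at 47.7 TPM (95% interval, 43.5 to 52.1) with 490 reads in the wild type library and at 30.7 TPM (27.8 to 33.7) with 414 reads in the db/db library. It was the most abundant member in both libraries, and the intervals did not overlap. Its ratio was 1.56-fold lower, a log2 ratio of -0.64 (-0.83 to -0.45) with an FDR of 2.14e-10 in the exact binomial test. Only 13.9% of the listed genes had a log2 ratio as low or lower.

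Stab2 was at 20.1 TPM (17.5 to 23.1) in the wild type library and at 17.5 TPM (15.4 to 19.9) in the db/db library. The difference was within counting error, with a log2 ratio of -0.20 (-0.47 to 0.08, FDR 0.218 in the exact test). Stab1 was at 11.9 TPM (9.86 to 14.2) in the wild type library and at 11.3 TPM (9.53 to 13.2) in the db/db library. Its log2 ratio of -0.08 (-0.43 to 0.28) was the nearest to 0 of the 10 genes. Within each library, where no scaling enters, Stab1 had 0.589 reads per read of Stab2 in wild type liver (0.467 to 0.741) and 0.641 in db/db liver (0.520 to 0.790), and these intervals overlap widely.

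Lyve1 had the fewest reads of the members in the wild type library, 33, which is 3.21 TPM (2.21 to 4.51). In the diabetic library it had 79 reads or 5.85 TPM (4.63 to 7.29). The value was 1.82-fold that of the wild type library, a log2 ratio of 0.87 (0.26 to 1.5), but its FDR of 0.00689 missed the threshold of 0.001 in the exact test. By the fold alone, 34.4% of all listed genes were 1.5-fold higher. Under the 4 other scalings its FDR lay between 0.073 and 0.106. A difference was not established for Lyve1 at this depth.

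Of the signalling receptors, Kdr and Eng differed in opposite directions. Kdr had 123 reads in the wild type library, 12.0 TPM (9.95 to 14.3), and 299 reads in the db/db library, 22.1 TPM (19.7 to 24.8). It was 1.85-fold higher, a log2 ratio of 0.89 (0.58 to 1.20) with an FDR of 1.41e-08 in the exact binomial test. Of the 4 scalings, median-ratio scaling lowered its log2 ratio to 0.58, which is just under 1.5-fold, and ended the call. Kdr ranked among the middle members in the wild type library and was second only to Clec4g in the db/db library.

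Eng was at 22.7 TPM (19.9 to 25.8) with 233 reads in the wild type library and at 15.0 TPM (13 to 17.2) with 203 reads in the db/db library. The intervals did not overlap, and the gene was 1.51-fold lower with a log2 ratio of -0.59 (-0.87 to -0.32) and an exact-test FDR of 6.32e-05. Tek, with 36 reads in the wild type library and 40 in the db/db library, was the least abundant of these 3 receptors. Its log2 ratio of -0.24 (-0.93 to 0.45, FDR 0.577 in the exact test) leaves a lower or a higher level within counting error.

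Of the junction genes, Pecam1 was at 6.52 TPM (5.05 to 8.28) with 67 reads in the wild type library and at 4.37 TPM (3.32 to 5.63) with 59 reads in the db/db library. Its log2 ratio of -0.58 (-1.11 to -0.05) lay just inside 1.5-fold, and its FDR was 0.0452 in the exact test. Under the 4 other scalings the log2 ratio of Pecam1 was -0.83 to -0.88 and its FDR 0.00173 to 0.00339, which also missed the threshold. Cdh5 was at 13.7 TPM (11.5 to 16.2) in the wild type library and at 11.7 TPM (9.94 to 13.7) in the db/db library, a log2 ratio of -0.23 (-0.57 to 0.11, FDR 0.251 in the exact test). On the deposited scale the intervals of both genes overlapped between the libraries. For Cdh5 the 4 other scalings gave a log2 ratio of -0.48 to -0.54 and an FDR of 0.00388 to 0.00982 in the exact test.

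Ehd3, the endosome recycling gene, was at 16.7 TPM (14.3 to 19.4) with 172 reads in the wild type library. In the diabetic library it was at 11.03 TPM (9.33 to 13) with 149 reads. It was 1.52-fold lower, a log2 ratio of -0.60 (-0.93 to -0.28) with an exact-test FDR of 0.00054. Ehd3 and Eng lay so near the fold threshold that a pseudocount of 1 TPM, which moved their log2 ratios to -0.56, ended both calls.

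**Figure D2:**
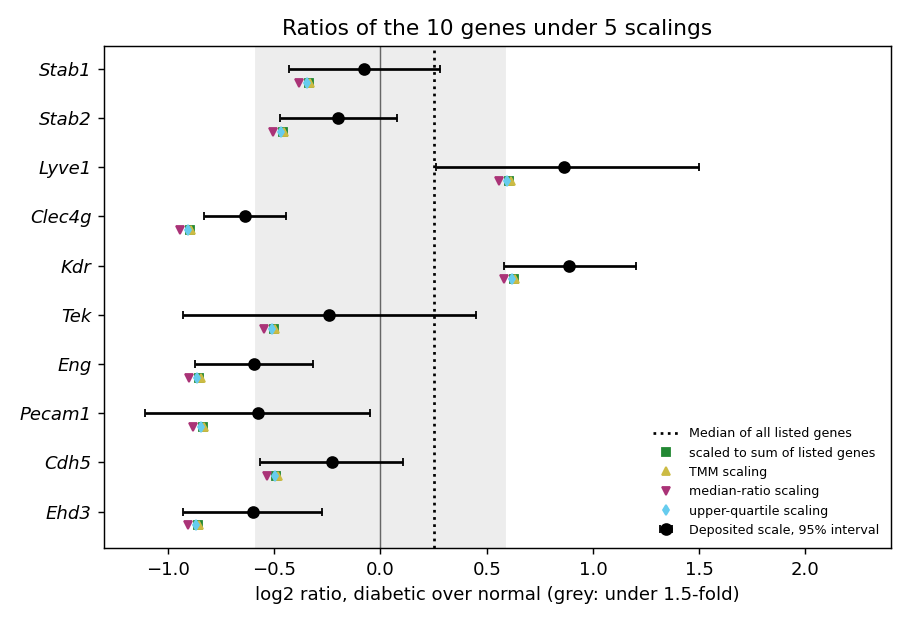
log2 ratio of each gene, db/db over wild type, on the deposited scale (black, 95% interval) and under 4 other scalings (coloured), with ratios under 1.5-fold shaded grey and the median of all listed genes dotted. Kdr and Lyve1 stand to the right of 0 under each of the 5 scalings, and the other 8 genes to the left.

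Relative to the median of all listed genes, the order of the members was the same, since a scaling moves every ratio alike. The counting interval lay wholly below that median for 6 members, Stab2, Clec4g, Pecam1, Cdh5, Ehd3 and Eng. It lay wholly above it for Kdr and Lyve1, and it included it for Stab1 and Tek. For Lyve1 the lower end, 0.262, was close to the median of 0.253. The shares of all listed genes with intervals below or above the median are not given here, so these counts have no background to be read against. Under trimmed mean of M values (TMM) scaling the log2 ratio was -0.89 for Clec4g, -0.85 for Ehd3, -0.85 for Eng and 0.63 for Kdr, and the same 3 and 1 members were called. Of all listed genes, 13.4% were called lower and 14.9% higher by TMM, 14.8% and 13.3% by median ratio, 13.8% and 14.3% by upper quartile, and 13.6% and 14.6% after scaling to the sum of listed genes.

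In the composition of the marker reads, which needs no scaling between the libraries, Kdr and Clec4g had the largest differences in share. The shares sum to a whole, so a higher share of Kdr lowers those of the other genes. The 10 genes together had 1624 reads in the wild type library and 1790 in the db/db library, which is 158 and 133 TPM and a log2 ratio of -0.25 (-0.35 to -0.16). Kdr took 7.57% of these reads in the wild type library (6.38% to 8.96%) and 16.7% in the db/db library (15.0% to 18.5%). Clec4g took 30.2% (28% to 32.4%) in the wild type library and 23.1% (21.2% to 25.1%) in the db/db library. The share of Lyve1 was 2.03% (1.45% to 2.84%) and 4.41% (3.56% to 5.47%) in the same order. For these 3 genes the intervals of the share did not overlap. Eng took 14.3% (12.7% to 16.1%) in the wild type library and 11.3% (9.95% to 12.9%) in the db/db library. Ehd3 took 10.6% (9.19% to 12.2%) and 8.32% (7.13% to 9.69%) in the same order, and the intervals of both genes overlapped. The shares of Stab1, Stab2, Pecam1, Tek and Cdh5 differed by under 1 percentage point.

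**Figure D3:**
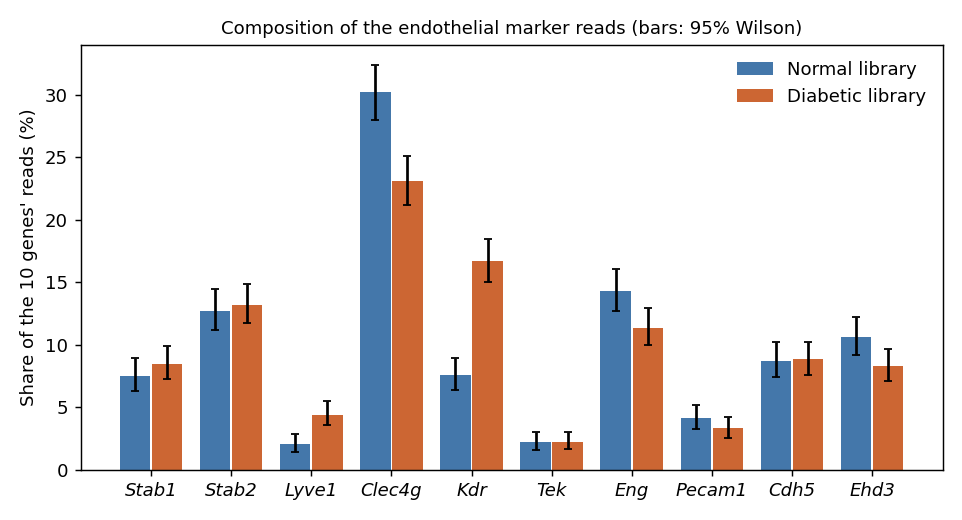
Share of each gene in the reads of the 10 endothelial marker genes (%), in the wild type (normal, blue) and the db/db (diabetic, orange) library, with 95% Wilson intervals. Kdr stands at 7.57% and 16.7%, and Clec4g at 30.2% and 23.1%.

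Some pairs of members differed between the libraries, mainly those with Kdr or Lyve1. Such pairs rest on the same reads as the shares of these genes. There were 0.872 Kdr reads per Cdh5 read in the wild type library (95% interval, 0.679 to 1.12) and 1.89 in the db/db library (1.56 to 2.31). Per read of Pecam1 there were 1.84 Kdr reads (1.35 to 2.51) and 5.07 (3.82 to 6.82) in the same order. Per read of Clec4g the number of Kdr reads was 0.251 (0.204 to 0.306) in the wild type library and 0.722 (0.620 to 0.840) in the db/db library. The interval of the ratio of Kdr to Tek, 2.34 to 5.10 in the wild type library, just missed that of the db/db library, 5.36 to 10.7. Lyve1 reads per read of Clec4g numbered 0.0673 (0.0458 to 0.0959) in the wild type library and 0.191 (0.148 to 0.243) in the db/db library. The intervals of Lyve1 over Stab2, Pecam1, Cdh5, Ehd3 and Eng were also separate. Those over Stab1 and Tek overlapped. All these Lyve1 ratios rest on 33 reads in the wild type library. Cdh5 over Pecam1, a pair of adhesion genes, was 2.10 (1.56 to 2.86) and 2.68 (1.97 to 3.68), within counting error. So were Kdr over Lyve1, at 3.73 (2.52 to 5.65) and 3.78 (2.94 to 4.91), and Clec4g over Eng, at 2.10 (1.80 to 2.47) and 2.04 (1.72 to 2.42).

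VEGFR2 is activated by VEGF ligands, with neuropilins as co-receptors. Of the 9 genes of this list besides Kdr, 5 were listed, and 1 of them was called, in the lower direction that 8.19% of all listed genes took. Vegfb, whose product binds VEGFR1, fell from 7.69 TPM to 3.11 TPM, a log2 ratio of -1.31 (FDR 4.69e-06 in the exact binomial test). Vegfc, a ligand of VEGFR2 and VEGFR3, was at 9.83 TPM and 7.18 TPM in the wild type and db/db libraries and was not called, except under median-ratio scaling (log2 ratio -0.76, FDR 0.000701 in the exact test). Nrp1, a co-receptor of VEGFR2, had 35 and 73 reads with a log2 ratio of 0.66, and Nrp2 and Figf (VEGF-D) were not called either. The other 4 genes of the list, Vegfa, Pgf, Flt1 and Flt4, were not analysed here.

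Of 5 genes around Tek 2 were listed. The orphan receptor Tie1, which pairs with TIE2, fell from 9.53 TPM with 98 reads to 5.03 TPM with 68 reads, a log2 ratio of -0.92 (FDR 0.00017 in the exact test). Angpt2, a ligand of TIE2, had only 12 and 15 reads.

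Endoglin presents BMP9, encoded by Gdf2, to its signalling receptors. Gdf2 was at 3.99 TPM in the wild type library and at 5.70 TPM in the db/db library and was not called (FDR 0.122 in the exact test). Of all listed genes, 8.19% were called lower and 22.9% higher. Of the 21 genes of endoglin and BMP signalling 15 were listed, with 4 called lower and 3 called higher. Lower were the ligands Bmp4, from 179 to 28 reads, and Bmp2, from 106 to 72 reads, the shared signal transducer Smad4, from 123 to 32 reads, and the target gene Id3, from 648 to 430 reads. Higher were the type I receptors Bmpr1a, with 32 and 91 reads, and Tgfbr1, with 28 and 99 reads, and the target gene Id1, with 101 and 306 reads. Id1 and Id3, target genes of the same pathway, thus differed in opposite directions, with log2 ratios of 1.20 and -0.99. The call of Bmpr1a was lost under each of the 4 other scalings, with an FDR of 0.00699 to 0.0117 in the exact test. These genes are also expressed in other liver cells.

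Beside Cdh5 and Pecam1, 10 of 12 partner genes were listed, with 1 called lower and 1 called higher. The calls in this paragraph stand against 8.19% lower and 22.9% higher of all listed genes. Ctnnb1, encoding beta-catenin, which links cadherins to the cytoskeleton, fell from 162 TPM to 107 TPM. Ctnnd1, encoding p120-catenin, which stabilizes cadherins at the membrane, rose from 5.84 TPM to 15.4 TPM. Both catenins also serve E-cadherin in hepatocytes. Hyaluronan is bound by stabilin-2 and LYVE1. Of the genes of its handling, Gusb, which encodes the lysosomal beta-glucuronidase, was called higher with a log2 ratio of 1.18. The hyaluronidase gene Hyal2 was at 24.3 TPM and 22.1 TPM in the wild type and db/db libraries. Of 8 listed EHD family members and partners, only the close relative Ehd1 was called. It rose from 10.99 TPM to 23.5 TPM, a log2 ratio of 1.09 (0.78 to 1.42), against -0.60 for Ehd3.

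Of 22 other sinusoidal endothelial genes 15 were listed, with 4 called lower, 1 called higher and a median log2 ratio of -0.03. Bmp2, Gpr182, Ptgs1 and Dnase1l3 were lower. Gpr182, an endothelial receptor, went from 17.1 TPM to 11.3 TPM (log2 ratio -0.60), and Dnase1l3, a secreted DNase, from 41 to 18 reads (log2 ratio -1.58). The higher gene was Cd55, a complement inhibitor found on many cell types, whose call was lost under median-ratio and upper-quartile scaling (FDR 0.00232 and 0.0011 in the exact test). The mannose receptor gene Mrc1 was at 15.9 TPM and 15.7 TPM, the Fc receptor gene Fcgr2b at 11.1 TPM and 10.1 TPM, and Oit3 at 10.8 TPM in each library. On the deposited scale all 3 were within counting error.

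Of 31 general endothelial genes 23 were listed, with 3 called lower, 2 called higher and a median log2 ratio of -0.24. The tight junction gene Cldn5 fell from 78 to 16 reads, a log2 ratio of -2.69, the lowest of the endothelial genes, and Eltd1 and Tie1 were the others called lower. Cd34 rose from 6 to 36 reads and Cd93 from 9 to 58 reads, so both rest on fewer than 10 reads in the wild type library, and the call of Cd34 was lost under each of the 4 other scalings (FDR 0.00193 to 0.00305 in the exact test). The most abundant of these genes, Plvap, Egfl7 and Aqp1, had log2 ratios of 0.16, -0.33 and -0.14 and were not called. That of Plvap was below 0 under each other scaling, and Egfl7 was called lower under 3 of them. Over both lists, which hold 38 listed genes, 7 were called lower and 3 higher, beside 8.19% and 22.9% of all listed genes. Under TMM scaling the medians were -0.49 for the 10 members, -0.28 for the other sinusoidal genes and -0.50 for the general endothelial genes.

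**Figure D4:**
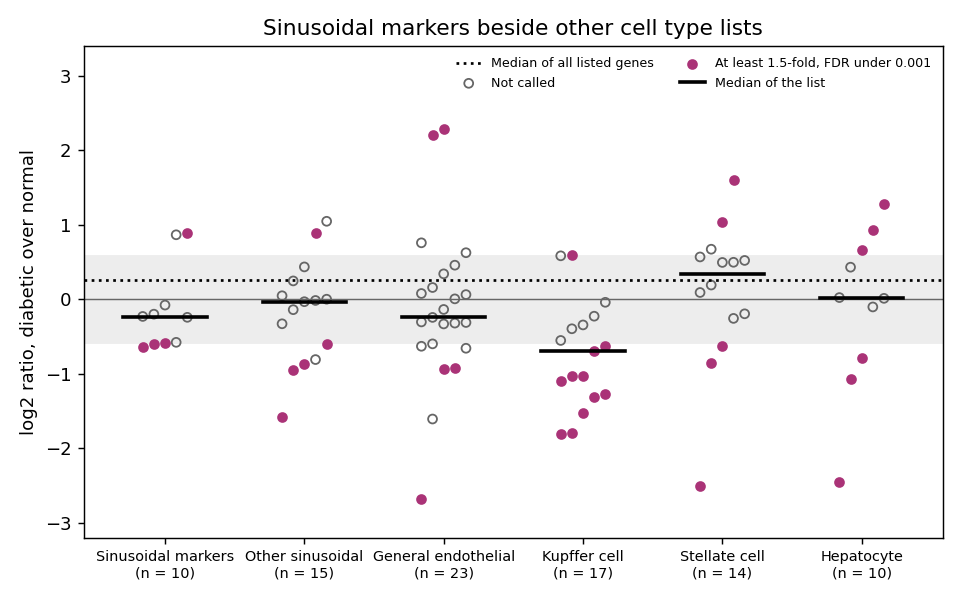
log2 ratios, db/db over wild type, of the genes of 6 cell type lists, with called genes filled, the median of each list as a bar and that of all listed genes dotted. The medians are -0.24 for the sinusoidal markers, -0.03 and -0.24 for the other endothelial lists, -0.70 for Kupffer cell genes, 0.34 for stellate cell genes and 0.02 for hepatocyte genes, the last being -0.23 to -0.29 under the other scalings.

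Markers of other liver cells moved beside the endothelial genes. Their calls are to be read beside the 8.19% of all listed genes called lower and the 22.9% called higher on the deposited scale. Of 20 Kupffer cell genes 17 were listed, 10 were called lower and 1, C1qb, was called higher on the deposited scale alone. Their summed level was 594 TPM in the wild type library and 351 TPM in the db/db library, and C1qa alone went from 176 TPM to 50.7 TPM. The macrophage receptor gene Csf1r had a log2 ratio of -1.10 and the F4/80 gene, listed as Emr1, one of -1.03. The abundant genes Cd5l and Ctss, at -0.04 and -0.34, were not called on the deposited scale. Under each of the 4 other scalings Ctss was called lower and Cd5l was not. The log2 ratio was above 0 for 2 of the 17. None of the 17 was at 0. Clec4f, the marker most restricted to Kupffer cells, had 15 reads in each library, which is 1.46 TPM in wild type and 1.11 TPM in db/db liver. Its log2 ratio of -0.40 (-1.53 to 0.74), or -0.65 to -0.70 under the other scalings, was not called and has a wide interval. Of 14 listed stellate cell genes 2 were called higher and 3 lower, with summed levels of 235 TPM and 283 TPM. Their median log2 ratio of 0.34 was 0.04 to 0.09 under the other scalings. For hepatocytes, Alb was at 6801 TPM and 6912 TPM and was not called, with a log2 ratio of 0.02 that was below 0 under each other scaling. Of 10 listed hepatocyte genes 3 were called lower, Apob, Fgb and Hnf4a, with log2 ratios of -2.45, -0.79 and -1.07. The 3 called higher were Cps1, Asgr1 and Apoh, with log2 ratios of 1.28, 0.93 and 0.67, and the call of Apoh was lost under each of the 4 other scalings. Of the other lists, cholangiocyte genes had 3 listed members with Spp1 called higher (not under median-ratio or upper-quartile scaling), lymphocyte genes had 3 with none called (Cd79b was called lower under each of the 4 other scalings), and erythroid and platelet genes had 2, of which the platelet gene Pf4, with 2 and 29 reads, was called higher. The part of these cells in the endothelial values was not tested, and no test was made of a difference between the lists.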

How the data were processed

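Liver poly(A) RNA of normal and db/db mice was profiled by digital gene expression in 1 library per group, assigned from the labels. The methods name a pair of mouse suppliers without assigning them to the groups and do not state whether RNA was pooled. The authors compared clean tags with RefSeq (mm9 in the submitters' processing notes) and deposited RPM values, which they call TPM. The lowest value, 0.01 TPM, is less than 1 tag and was taken as no tag, and the lowest mean listed is 1.005 TPM. The aligner and the treatment of shared tags are not given in the sources used here. Within 0.005 TPM, 8511 of 8513 wild type values and 8536 of 8537 db/db values were whole reads, and all 10 members were whole in both. By the exact binomial test alone 3212 genes had an FDR under 0.001, and 2655 of these also differed 1.5-fold.

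Members and gene lists were chosen with earlier results of these data known. Of 205 entries in 14 other lists, 132 matched by symbol, older symbol or Entrez identifier (RefSeq GRCm38.p6). Named are all members, listed pathway genes, and, of cell type lists, the 4 most abundant and the called genes, together with Clec4f and Fcgr2b, chosen after their values were seen. Lists are described by counts and medians without a test. A withheld item is not reported here. Columns of other samples numbered 0. Alternatives were 4 scalings (sum of listed genes, TMM, median ratio, upper quartile), pseudocounts of 0.1 and 1 TPM, a mean of at least 5 TPM, a fold of 2, fold alone and the Audic-Claverie test. The computation was tested on simulated reads. Tests used scipy 1.17.1 with numpy 2.4.6, tables pandas 2.3.3 and plots matplotlib 3.10.9, in Python 3.11.15.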

Additional observations from a re-analysis of the deposited data

How the results depend on the processing

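Kdr and Lyve1 kept log2 ratios above 0 under each of the 4 scalings. The other 8 members were below 0 and could not change direction, since each scaling lowered every ratio. A pseudocount cannot change the sign of a log2 ratio. The filter on a mean of at least 5 TPM kept 8 members and leaves ratios as they are. No member call held under every alternative. Under median-ratio scaling 0 members were called higher, since Kdr had a log2 ratio of 0.58, and 3 stayed lower. With a pseudocount of 1 TPM only 1 member was called lower, because Eng was at -0.56 and Ehd3 at -0.56. At a fold of 2, 0 members were called in either direction, and by the fold alone 2 were higher, Kdr and Lyve1. The Audic-Claverie test called 1 higher and 3 lower. Over the genes of the other lists, 18 were called higher and 28 lower on the deposited scale, 10 were called higher under median-ratio scaling and 10 under upper-quartile scaling, and 16 were called lower at a fold of 2. Without Kdr, or without Kdr and Lyve1, left out after the values were seen, the median of the members was -0.24 and -0.41. No paired analysis was possible because each group has 1 library. No library could be left out for the same reason, so variation between mice is not part of any value. The limit that a count of 0 allows was 3 reads, which is 0.292 TPM for wild type and 0.222 TPM for db/db liver. Members under 100 reads, Lyve1, Pecam1 and Tek, have wide intervals.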
